A study of Mus musculus with 54 samples.

Results

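The microRNAs (miRNAs) described here are those with late numbers in the mouse catalogue, whose number right after "miR-" is 1200 or above and which had at least 10 raw counts in at least 6 of the 36 liver and epididymal white adipose tissue (eWAT) libraries. Among the 1966 mature names counted, 1099 carried such a number, 344 of these stood at 0 in all 36 libraries, and 120 met the count rule. The rule used the counts themselves, pooled over both tissues and all diets, so the abundance of these 120 names and their presence in a tissue are given as a description. The question set to them was which behave as hairpin-derived miRNAs and which may be pieces of other RNAs.

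Small RNA was sequenced from liver, eWAT and sperm of wild-type C57BL/6 males of the founder (F0) generation. All mice ate chow from weaning to 6 weeks of age and their assigned diet until 24 weeks. HFLF mice had a high-fat diet for 9 weeks and a low-fat diet for the next 9, HF mice had a high-fat diet for 18 weeks, which the diet protocol prints as "HLD", and LF mice had a low-fat diet for 18 weeks. Each tissue had 6 libraries per diet. The labels give each sample a number and nothing more on whether each came from its own animal, so the p-values speak only of the spread among the libraries sequenced.

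A miRNA is a short RNA cut from a hairpin, first by Drosha with its partner DGCR8 in the nucleus and then by Dicer in the cytoplasm, which leaves a duplex of 5p and 3p arms with short 3′ overhangs. One arm is loaded into an Argonaute protein, and the seed near its 5′ end pairs with target messenger RNAs. Some hairpins, called mirtrons, are whole short introns that splicing releases without Drosha. Other catalogued short RNAs lie within small nucleolar RNAs (snoRNAs) or their Cajal-body relatives (scaRNAs), which guide modification of ribosomal and spliceosomal RNA, or within tRNA transcripts. Some snoRNAs and scaRNAs are also known to be cut by Dicer, so an overlap alone does not tell a fragment from a miRNA.

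RefSeq (GRCm38.p6) gave a mature sequence for 103 of the 120 names and a hairpin for 97. The first set below lies inside snoRNAs or scaRNAs of the GENCODE annotation. It is shown because its members include the second most abundant name and the snoRNA matches found in the sperm table. Capitals mark the seed, bases 2 to 8, except in miR-3535, where they mark the letters UGAUGA and CUGA that resemble the boxes of a C/D snoRNA.
miR-1839-5p: aAGGUAGAuagaacaggucuug
miR-1843a-5p: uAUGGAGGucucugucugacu
miR-1843b-5p: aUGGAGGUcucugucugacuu
miR-1291: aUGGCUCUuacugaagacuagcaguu
miR-5121: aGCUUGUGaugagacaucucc
miR-3535: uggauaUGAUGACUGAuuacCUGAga

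The next pair has a tRNA overlap or a 3′ CCA, and a 3′ CCA alone does not mark a piece of a tRNA. In miR-1983 capitals mark the bases inside a tRNA gene, and in miR-3968 they mark a 3′ CCA, the trinucleotide that is added to tRNAs at maturation.
miR-1983: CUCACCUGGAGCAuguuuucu
miR-3968: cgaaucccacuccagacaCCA

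The next sequences end exactly at the 3′ end of an intron, and capitals mark the closing AG of the splice site.
miR-1231-3p: ugcccugucuguucugcccacAG
miR-3076-3p: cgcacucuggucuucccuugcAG
miR-5101: uuuguuuguuuugcugaugcAG

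The remaining sequences carried diet differences and had no exact match to an annotated small RNA, no tRNA overlap, no 3′ CCA and no end at a 3′ splice site. Capitals mark the seed again.
miR-1249-3p: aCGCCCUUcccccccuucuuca
miR-1306-5p: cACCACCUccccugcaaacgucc
miR-1306-3p: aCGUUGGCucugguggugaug
miR-1964-3p: cCGACUUCugggcuccggcuuu
miR-2137: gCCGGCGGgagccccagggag
miR-3065-5p: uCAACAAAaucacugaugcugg
miR-5126: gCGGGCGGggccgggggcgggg
miR-5615-5p: cUUGGUUGuuuucugagacaga
miR-7688-5p: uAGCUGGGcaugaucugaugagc

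Library totals ran from 7481038 to 13022536 counts in eWAT and from 7017730 to 14394584 in liver, and 3 counts, the smallest amount read here as present, equalled 0.208 to 0.427 CPM (counts scaled to a common library total), counting error only. Levels below are CPM scaled by the trimmed mean of M-values (TMM) within each tissue, so a level set across tissues joins separately scaled tables. The 3 hepatocyte marker miRNAs summed to 331000 to 655000 CPM in liver and the 4 adipocyte markers to 45200 to 363000 in eWAT, and no marker was at 0 throughout. In eWAT the summed 6 epithelial miRNAs stood at 74.1 to 2020 CPM in HFLF, 78.5 to 147 in HF and 102 to 8530 in LF, with LF 4, LF 5 and HFLF 4 highest. All 5 epithelial markers that could be tested fell in HF against LF, as did 3 of 4 adipocyte, both striated muscle, 2 of 3 male germ cell, 1 of 3 hepatocyte and 1 of 3 red blood cell miRNAs, while 4 of 7 leukocyte miRNAs rose. The male germ cell miRNAs summed to 31.3 to 333 CPM in HFLF, 15.1 to 235 in HF and 20.5 to 1860 in LF. In such bulk samples fewer cells of a type and less RNA per cell cannot be told apart, and the part of these markers in the diet differences below was not tested except where results without the 3 libraries are given.

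The 120 names took a small share of each library. It averaged 0.242 ± 0.015% of counts in HFLF eWAT, 0.323 ± 0.041% in HF eWAT and 0.23 ± 0.029% in LF eWAT (SD, n = 6 each). In liver it averaged 0.188 ± 0.021% in HFLF, 0.206 ± 0.024% in HF and 0.176 ± 0.008% in LF. All 6 HF eWAT libraries, at 0.28 to 0.375%, lay above the other 12 eWAT libraries, which reached 0.273%. These are shares of raw totals. The TMM factors of the eWAT libraries were 0.9211 to 1.0304 in HFLF, 1.0424 to 1.2382 in HF and 0.765 to 0.9864 in LF. Divided by these factors, the share of HF 4 lies below that of LF 6, so the separation holds for raw totals only. A pair of names, miR-3968 and miR-1839-5p, made up 56.57 to 66.58% of the members' counts in eWAT and 43.32 to 54.57% in liver.

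Detection was uneven. The minimum of 10 counts was met in all 36 libraries by 26 names, in all 18 eWAT libraries by 45 and in all 18 liver libraries by 33. It was met in eWAT alone by 28 names and in liver alone by 4. Mean levels lay under 2 CPM for 63 names in eWAT and for 80 in liver. Just inside the rule stood miR-1231-3p, with 6 eWAT libraries at the minimum and no liver library, and miR-3473h-5p, with 3 of each. Just outside, with 5 libraries, stood 11 names, among them miR-1247-3p (4 eWAT and 1 liver) and miR-6964-5p (5 liver). No name was admitted by 1 diet alone, but 7 would keep fewer than 4 libraries without a single diet, which was HF for miR-1231-3p, miR-3079-5p, miR-3473h-5p, miR-7021-5p, miR-7051-5p and miR-8103 and HFLF for miR-5121.

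Levels differed between the tissues for many names. The mean was higher in eWAT for 92 and higher in liver for 28, and the ranges of the 18 libraries per tissue did not overlap for 18 names higher in eWAT and 7 higher in liver. These figures hold for levels scaled within each tissue. The joint fit of all 36 libraries gave TMM factors of 0.5564 to 0.9509 in liver and 1.2081 to 2.1444 in eWAT. On that joint scale liver levels stand higher and eWAT levels lower than given here, so these counts of names would change. Of the most abundant name, miR-3968, eWAT held 830.3 ± 249.6 CPM and liver 512.6 ± 116.7 (SD, n = 18 each), with overlapping ranges. miR-1839-5p, which lies whole in an annotated scaRNA, held 786.3 ± 87.2 CPM in eWAT and 434.6 ± 53.7 in liver. On the within-tissue scale all eWAT values of miR-1839-5p, from 686.5, lay above the highest liver value of 541.4. With the joint factors neither this separation nor the higher eWAT level of miR-3968 holds. For miR-1981-5p, from an intron of Marc2, the levels were 100.2 ± 14.9 CPM in eWAT and 31.4 ± 7.68 in liver. In the other direction, miR-1948-3p held 2.373 CPM in eWAT (0.91 to 5.01) and 206.5 ± 29.2 in liver, and its partner arm miR-1948-5p held 1.341 CPM in eWAT and 104.4 ± 18.4 in liver. Neither arm of miR-1948 overlapped between the tissues. The 3p arm of miR-3105 held 0.2463 CPM in eWAT (0 to 1.367) and 8.977 ± 1.663 in liver (7.189 to 13.29), and its 5p arm was at 0 in all eWAT libraries. miR-12182-3p held 0.2155 CPM in eWAT and 3.93 ± 2.355 in liver. Both were higher in every liver than in every eWAT library. Read mostly in eWAT were miR-6392-5p, with 4.28 ± 1.946 CPM in eWAT and 0.0522 in liver, and miR-3081-3p, with 1.577 ± 0.5533 and 0.011. The name miR-8120 averaged 0.7843 CPM in eWAT and was at 0 in all 18 liver libraries.

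**Figure D1:**
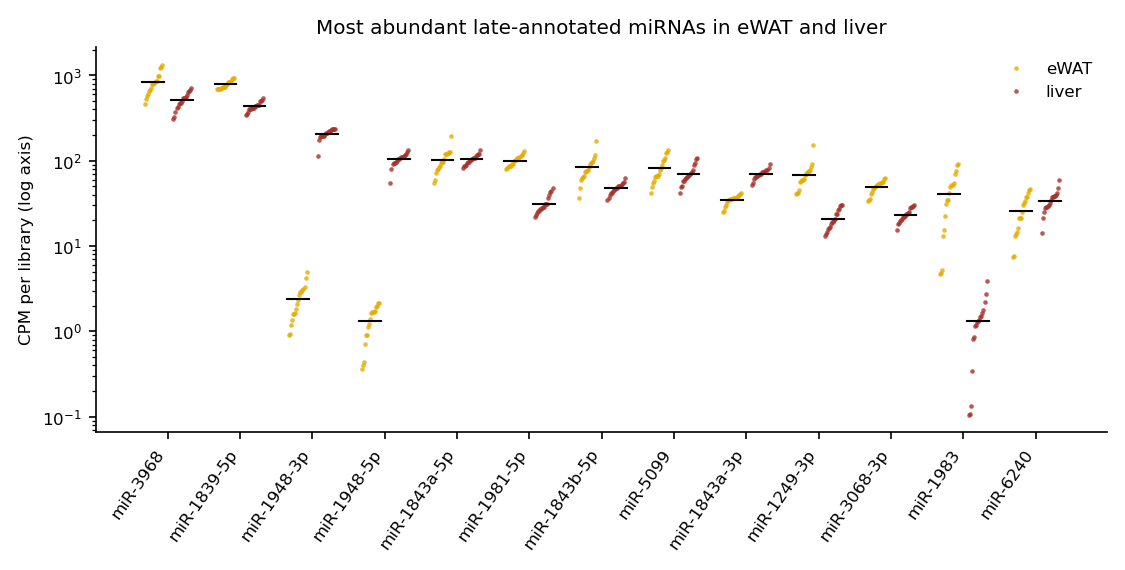
Levels of abundant late-numbered miRNAs in every library (CPM after TMM scaling within tissue, log axis), eWAT in yellow left of liver in red, each point a library and each bar the mean of 18. On this within-tissue scale the eWAT points of miR-1839-5p all lie above its liver points, which does not hold with joint scaling. The eWAT points of both miR-1948 arms all lie below their liver points.

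Hairpin features were set beside those of the 482 names numbered below 1200 that met the same count rule. Of these 482, 401 had a sequence and 379 a hairpin. Both arms had at least 10 counts, summed over the 36 libraries, for 52 of 97 late-numbered names (53.6%) and for 285 of 379 others (75.2%). The duplex left overhangs of 0 to 4 bases at both ends for 44 of 59 names where both arms were annotated (74.6%), and for 272 of 299 others (91.0%). Predicted folding energy was at or under -0.2 kcal/mol per base for all 97 and all 379. At least 60% of the mature bases were paired for 94 late-numbered names (96.9%) and 377 others (99.5%), with medians of 79.2% and 85.7%. The hairpin was a single stem for 95 and 371 names, 97.9% of each. All 5 features were met by 37 late-numbered names (38.1%) and by 245 others (64.6%), as shares of all names with a hairpin. A name for which no overhang could be computed counted as not meeting them. The 2 sets lay close in folding and further apart in arm counts and overhangs. The arm feature depends on level, as it needs 10 counts on the partner arm, and it was not met where no partner arm is listed. Mean levels of late-numbered names lay under 2 CPM for 63 in eWAT and for 80 in liver. The part of level in this difference was not tested. These are descriptions of the catalogue entries, with no test.

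The names that failed a folding feature were few. The share of mature bases paired was 36.4% in miR-7653-5p and 57.1% in miR-3473e, with miR-3964 between them. The hairpins of miR-1291 and miR-1983 did not fold as a single stem. Several names, abundant ones among them, lacked a partner arm. The tables used here list no other arm for miR-3968, with 228816 counts over the 36 libraries, nor for miR-2137, miR-5126, miR-6240, miR-1983, miR-3535 or miR-1291. For miR-7688-5p, with 2163 counts, the listed partner arm had 0, and for miR-1964-3p, with 2418, it had 1.

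Exact matches to annotated transcripts (GENCODE M21, same genome build) were then counted. A mature sequence lay whole inside an annotated small RNA for 15 of 103 late-numbered names (14.6%) and 2 of 401 others (0.499%). For 13 of the 15 the small RNA was a snoRNA or scaRNA. By RefSeq, at the first listed locus of each name, any overlap with a small RNA gene, tRNA genes included, was rarer. It held for 7 late-numbered names (6.8%) and 2 others (0.499%). Both arms of miR-1843a lie in Scarna3b, in an intron of Dcaf5, and both arms of miR-1843b in Scarna3a, in an intron of Cop1. miR-1839-5p (chr7:81529919-81529940, plus strand) matched a scaRNA gene that is itself named Mir1839. miR-3535 (chr1:86352062-86352087, minus strand) lies in a snoRNA in the gene of nucleolin, Ncl, a nucleolar protein. miR-5121 (chr7:45126925-45126945, minus strand) lies in Snord33 within Rpl13a, a ribosomal protein gene, and miR-1291 in Snora34. The RefSeq interval of Snora34 holds 7 bases of miR-1291 and leaves 19 outside. Both arms of miR-3068 and of miR-3084 and miR-6516-5p complete the set.

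**Figure D2:**
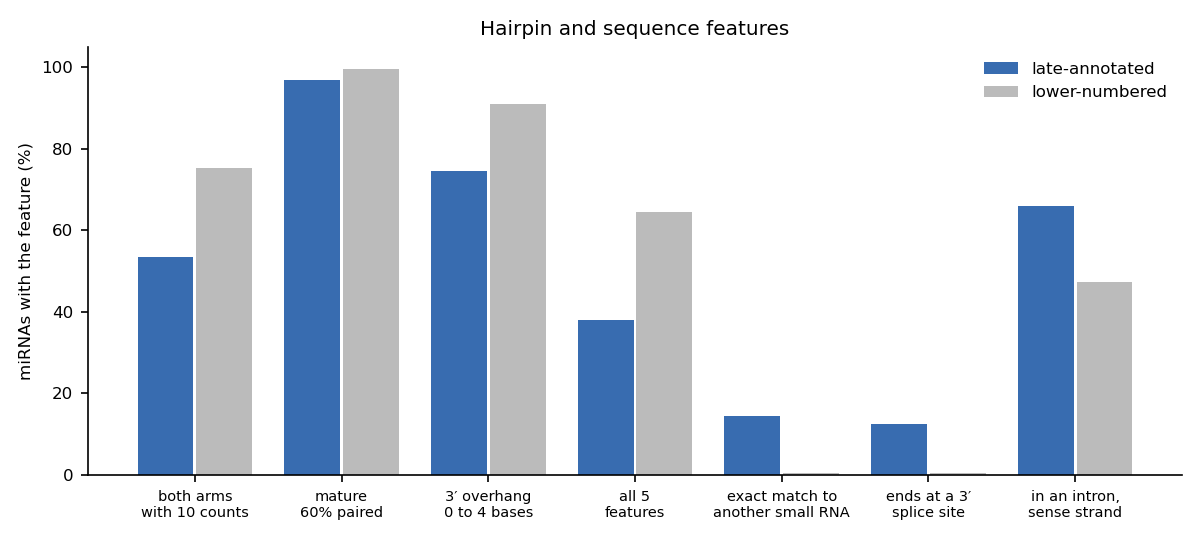
Share of late-numbered names and of lower-numbered names under the same count rule that have each hairpin or overlap feature (bars: percent of the names for which it could be computed). The bar for all 5 features is instead a percent of all names with a hairpin, and names without an overhang value count as not meeting it. The arm feature needs counts on the partner arm, so it depends on level. Both arms read, proper overhangs and all 5 features are less frequent among the late-numbered names, and matches to other small RNAs and ends at 3′ splice sites are more frequent.

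Within these hosts the reads still showed arm structure in part. The arms of miR-1843a held 34853 and 17753 counts (5p and 3p), with overhangs of 2 bases at both ends, and those of miR-1843b 22143 and 6995. Both hairpins met all 5 features. miR-1839-5p held 207820 counts and its 3p arm 1315. miR-3535, 26 bases long, held UGAUGA followed by CUGA. The arms of miR-3068 held 2476 (5p) and 12352 (3p) counts, and the 3p arm stood at 49.4 ± 8.777 CPM in eWAT and 23.35 ± 4.295 in liver. miR-6516-5p, also in a scaRNA, stood at 12.23 ± 2.696 CPM in eWAT and 4.653 ± 1.453 in liver. In contrast miR-1291 and miR-5121, without a listed partner arm, averaged 1.494 and 0.708 CPM in eWAT. Both letter strings, which may overlap each other, were found on the given strand in 5 of 1679 mature sequences (0.298%), among them also miR-7688-5p, which matches no annotated snoRNA. The 5p sequences of miR-1843a and miR-1843b are near-identical and the b form matches both scaRNAs, so the split of their reads is uncertain. The same holds for miR-3473b and miR-3473e, which share the seed GGCUGGA, the only seed shared by late-numbered names, and for miR-1970c-5p with miR-1970. In all, 7 members have a near-identical name.

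A few names match many genes. miR-3470b lay in transcripts of 544 other genes, miR-3473b of 342 and miR-3473a of 146, so their reads cannot be placed at 1 locus. miR-3470b and miR-3473b are the other 2 of the 15 small-RNA matches, to RNAs classed only as miscellaneous.

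Overlap with a tRNA gene was judged by position and a 3′ CCA by the sequence. miR-1983 (chr13:21896930-21896950, minus strand) has 13 of its 21 bases inside the interval of the tRNA gene n-TItat14 (chr13:21896938-21897031) and 8 beyond it. The strand of that tRNA gene is not given in the table used here. A 3′ CCA was found in 23 of 1679 mature sequences (1.37%), among them miR-3968 (chr11:115447969-115447989, minus strand, antisense to an exon of Trim80) and miR-3060-3p. Under the count rule it closed 1.94% of late-numbered and 0.998% of other sequences. Mitochondrial tRNAs were searched with a CCA added, and miR-3968 matched none of them exactly. Sequences of mature nuclear tRNAs and of the ribosomal precursor were not used here, so a match to these was not tested.

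Intron ends were common. The 3′ end of the mature sequence fell within 2 bases of an annotated 3′ splice site for 13 of 103 late-numbered names (12.6%) and for 2 of 401 others (0.499%). A mature sequence in sense within an intron was found for 68 (66.0%) and 190 (47.4%). miR-3076-3p (chr14:30572185-30572207, plus strand) closes an intron of Tkt, which encodes transketolase of the pentose phosphate pathway. miR-1231-3p (chr1:135454603-135454625, minus strand) closes an intron of Nav1, and miR-5101 (chr12:75909154-75909175, plus strand) an intron of Syne2, which encodes a nuclear envelope protein. For miR-1981 the 5p arm (chr1:184822465-184822488) starts at the first base of a Marc2 intron and the 3p arm (chr1:184822409-184822429) ends 2 bases before its end, so the hairpin spans the whole intron. The others were miR-1982-3p, miR-3082-3p, miR-3102-3p, miR-3103-3p, miR-3572-3p, miR-6911-3p, miR-6944-3p, miR-6978-3p and miR-7043-3p. Among these, miR-6978-3p comes from C3, the complement gene, and miR-1982-3p from Oaz1.

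A further 4 names lie opposite another miRNA hairpin: miR-3065-5p opposite Mir338, miR-3073b-5p opposite Mir3073a, miR-3074-5p opposite Mir24, and miR-5615-5p, whose 2 annotated copies lie opposite each other on chromosome 10. The first base was U in 42.7% of late-numbered and 42.4% of other mature sequences, and the median GC content was 52.4% and 45.5%.

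The first diet comparison was HF against LF eWAT. In edgeR's quasi-likelihood test with Benjamini-Hochberg adjustment over all 571 miRNAs tested, 103 late-numbered names could be tested and 17 were too low, and 20 passed an adjusted p of 0.05 (12 higher and 8 lower). That is 19.4% of the names tested, against 34.9% of all miRNAs called in this comparison (19.6% higher and 15.2% lower). The median log2 change was 0.046 for late-numbered names and 0.033 for all miRNAs. Ranges of the 6 libraries did not overlap for 7 late-numbered names, and for 13.5% of all miRNAs. Scaling by total counts, which moved the median of all miRNAs to 0.322, gave 27 late-numbered calls, 22 higher and 5 lower.

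Among names with a tRNA overlap or a 3′ CCA, miR-1983 rose. It stood at 13.0, 50.63 and 75.1 CPM in HFLF eWAT (lowest, median and highest), at 34.55, 61.39 and 92.74 in HF and at 4.648, 10.43 and 30.8 in LF. All HF libraries lay above all LF libraries, and the HFLF libraries spanned most of both ranges. The log2 change in HF against LF was 2.19 ± 0.50 (SE; edgeR adjusted p = 0.00294). In liver the name averaged 1.33 ± 0.95 CPM. miR-3968 stood at 463.1, 655.2 and 854.5 CPM in HFLF eWAT, 832.3, 1109 and 1345 in HF and 532.6, 735.1 and 980.7 in LF, and rose by 0.54 ± 0.17 (log2, edgeR adjusted p = 0.0217) in HF against LF with overlap of the ranges.

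Of the 13 names inside snoRNAs or scaRNAs 12 were tested, 3 fell and none rose, with a median log2 change of -0.39. Of all 571 miRNAs tested, 15.2% fell and 19.6% rose. The 5p sequences of miR-1843a and miR-1843b are near-identical, so their falls may not be separate. miR-1843a-5p stood at 83.83, 119.8 and 127.8 CPM in HFLF eWAT, 54.41, 74.58 and 87.43 in HF and 95.2, 112.4 and 194.8 in LF. The HF and LF ranges did not overlap. It fell by 0.78 on the log2 scale (SE 0.18, edgeR adjusted p = 0.00356). miR-1843b-5p stood at 66.04, 94.32 and 115.6 CPM in HFLF, 36.17, 61.09 and 76.16 in HF and 73.24, 86.11 and 170.0 in LF, with slight overlap of HF and LF, and fell by 0.79 (edgeR adjusted p = 0.0101). The partner arms did not pass, at -0.08 for miR-1843a-3p (adjusted p = 0.7, same edgeR test) and -0.42 for miR-1843b-3p (0.076). The third call was miR-3084-3p, with 3.258, 5.232 and 6.348 CPM in HFLF, 1.296, 3.298 and 5.009 in HF and 3.968, 6.334 and 11.25 in LF. Its HF and LF ranges overlapped, the log2 change was -1.06 ± 0.31 (edgeR adjusted p = 0.0128), and the 5p arm was at 0.06 (0.856). Counts of both arms were even in all 36 libraries, so reads may have been counted more than once. The most abundant name of the set, miR-1839-5p, changed by -0.15 (edgeR adjusted p = 0.226), and miR-3535 by -0.49 (0.0735).

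Of the 14 arms at intron ends 13 were tested, 1 rose and 2 fell, against 19.6% and 15.2% of all miRNAs. miR-3076-3p stood at 0.9423, 1.508 and 2.373 CPM in HFLF, 0.1128, 0.4795 and 0.6149 in HF and 0.949, 1.362 and 2.414 in LF. HF lay below both other diets in every library. It met the minimum of 10 counts in 6 HFLF, 0 HF and 6 LF eWAT libraries and in no liver library, so it entered the set through the diets in which it is higher and its HF values are not independent of how it was chosen. The log2 change was -1.80 ± 0.37 (edgeR adjusted p = 0.00124), from 26 counts over the 6 HF libraries and 86 over the 6 LF libraries. miR-1231-3p held 84 counts over the HF and 24 over the LF libraries, a log2 change of 1.69 ± 0.41 (edgeR adjusted p = 0.00415). As it met the count rule mainly through HF libraries, this value is likewise not independent of how it was chosen. miR-5101 changed by -1.11 (edgeR adjusted p = 0.0302). That call was lost in 11 of 19 alternatives, among them without LF 4, LF 5, HF 1, HF 2, HF 3 or HF 4 singly (adjusted p 0.0519 to 0.0843), and was at 0.275 without LF 4, LF 5 and HFLF 4.

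Further rises were as follows. miR-7688-5p (chr10:93433107-93433129, plus strand, in no annotated gene, with the letters CUGA and UGAUGA overlapping) stood at 6.015, 8.581 and 12.69 CPM in HFLF, 16.24, 19.77 and 32.12 in HF and 2.416, 5.415 and 9.073 in LF. The HF range lay above both other diets. The log2 change in HF against LF was 1.99 ± 0.34 (edgeR adjusted p = 0.000434). miR-5107-5p stood at 0.3663, 1.066 and 2.471 CPM in HFLF, 2.256, 3.596 and 9.392 in HF and 0.2678, 0.8013 and 2.113 in LF. HF and LF did not overlap, and the log2 change was 2.04 ± 0.50 (edgeR adjusted p = 0.00426).

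A pair of GC-rich names without a listed partner arm also rose. miR-2137 (chrX:72992113-72992133, plus strand, in an intron of Zfp185) stood at 9.799, 19.54 and 37.55 CPM in HFLF, 21.29, 33.29 and 53.01 in HF and 11.58, 15.07 and 18.51 in LF. It rose by 1.31 ± 0.30 (log2, edgeR adjusted p = 0.00284) without overlap of HF and LF. miR-5126 (chr1:84695890-84695911, plus strand, antisense to an exon of Dner) stood at 11.9, 24.2 and 44.5 CPM in HFLF, 35.84, 48.63 and 70.17 in HF and 11.78, 21.21 and 34.77 in LF. HF and LF did not overlap here either. The log2 change was 1.11 ± 0.33 (edgeR adjusted p = 0.0154), and the call was lost without LF 4, LF 5 and HFLF 4 (0.0709).

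Both arms of miR-1306 rose together. Its hairpin (arms at chr16:18284288-18284310 and chr16:18284248-18284268, minus strand) lies in an exon of Dgcr8, the gene of the Drosha partner. miR-1306-5p stood at 7.081, 10.1 and 11.23 CPM in HFLF, 11.28, 16.82 and 21.98 in HF and 5.924, 9.849 and 11.82 in LF, a log2 change of 0.76 ± 0.19 (edgeR adjusted p = 0.0057). miR-1306-3p stood at 2.075, 2.447 and 3.78 CPM in HFLF, 3.384, 5.241 and 8.661 in HF and 2.414, 2.717 and 3.581 in LF, a log2 change of 0.95 ± 0.23 (edgeR adjusted p = 0.00409). For both arms HF and LF overlapped only at the edges of their ranges. miR-1249-3p, from a gene on chromosome 15, averaged 92.02 CPM in HF and 53.48 in LF (log2 change 0.78 ± 0.21, edgeR adjusted p = 0.00726), and miR-1964-3p, from an intron of Zfp84, 12.7 and 6.77 CPM (0.91 ± 0.22, 0.00421). Ranges of both overlapped between HF and LF. miR-5099 averaged 110.1 CPM in HF and 74.9 in LF (0.56 ± 0.20, edgeR adjusted p = 0.0384), with 5 of 6 HF libraries above the LF mean.

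The other names that fell were few. miR-5615-5p held 8 counts over the 6 HF libraries, 4 of them at 0, and 76 over the 6 LF libraries, a log2 change of -3.24 ± 0.91 (edgeR adjusted p = 0.0101). It too met the minimum in no HF eWAT library, against 4 HFLF and 4 LF, so this value is not independent of how it was chosen. Its counts were even in all 36 libraries, so reads may have been counted more than once. miR-1247-5p, from an exon of Dio3os, the antisense RNA of the imprinted Dio3 locus, averaged 17.83 CPM in HF and 39.12 in LF, a log2 change of -1.13 ± 0.34 (edgeR adjusted p = 0.0156). Its call was lost with total-count scaling (0.0531) and without LF 4, LF 5 and HFLF 4 (0.0541). miR-3970 changed by -0.97 ± 0.32 (edgeR adjusted p = 0.0247), and was not called without LF 6, HF 4, HF 5 or HF 6 (0.0524 to 0.0724), nor in 4 other alternatives (0.0551 to 0.118). Across the classes, names that met all 5 hairpin features gave 3 rises and 5 falls among 31 tested, with a median of -0.16. Of all miRNAs 19.6% rose and 15.2% fell. These calls include miR-1231-3p and miR-5615-5p, whose values are not independent of how they were chosen, and the near-identical miR-1843a-5p and miR-1843b-5p.

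**Figure D3:**
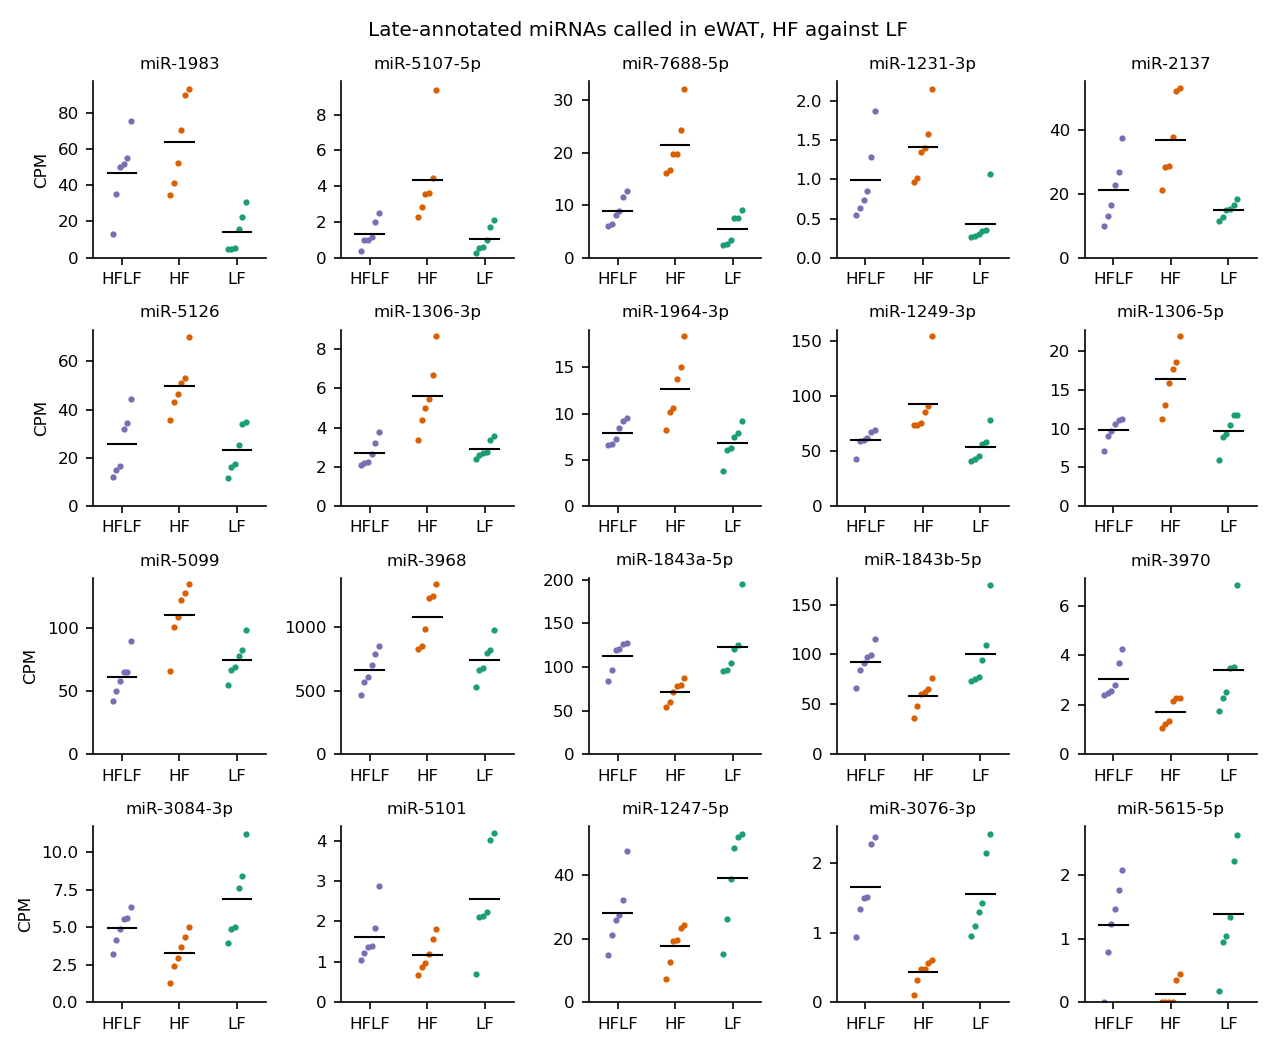
Late-numbered miRNAs in eWAT in each library of the HFLF, HF and LF diets (CPM after TMM scaling, linear axes that start at 0), each point a library and each bar the mean of 6. miR-7688-5p, miR-1983, miR-2137, miR-5107-5p and miR-5126 are higher in every HF library than in every LF library, and miR-3076-3p and miR-1843a-5p are lower in every HF library than in every LF library. miR-3076-3p met the count rule through HFLF and LF libraries and no HF library, so its place here is not independent of how it was chosen.

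HFLF against HF asks what differed after the return to low-fat food. This comparison shares the HF libraries with the one above, so opposite signs in the 2 are not separate findings. Of 103 late-numbered names tested 14 passed (4 higher and 10 lower), against 25.9% of all miRNAs (9.63% higher and 16.3% lower). The 4 higher include miR-3076-3p and miR-5615-5p, whose values are not independent of how they were chosen. Ranges did not overlap for 5 late-numbered names, miR-3076-3p among them, and for 9.81% of all miRNAs. Without HF 3 alone 6 were called, and without HFLF 5 alone 9.

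Higher in HFLF were 1 of 13 tested arms at intron ends, with a median log2 change of 0.02 over the 13. So were 2 of 12 tested names in snoRNAs or scaRNAs, with a median of 0.22. Of all miRNAs 9.63% were higher. The 2 names are the near-identical miR-1843a-5p and miR-1843b-5p, whose rises may not be separate. The log2 change was 1.91 ± 0.37 for miR-3076-3p (edgeR adjusted p = 0.00225), which kept its call under every alternative run. As miR-3076-3p met the count rule through HFLF and LF libraries and no HF library, this value is not independent of how it was chosen. The change was 0.65 ± 0.18 for miR-1843a-5p (0.0154, and 0.0512 without HF 3) and 0.67 for miR-1843b-5p (0.0328, lost in 11 of 19 alternatives). Leaving out HF 2, HF 3, HF 4, HFLF 1, HFLF 2, HFLF 3, HFLF 4 or HFLF 5 singly each ended the miR-1843b-5p call (adjusted p 0.0511 to 0.088). miR-5615-5p, with 70 counts over the HFLF libraries and 8 over the HF libraries, was higher by 3.06 ± 0.91 (edgeR adjusted p = 0.0209, and 0.0534 without HF 3). It met the minimum in 4 HFLF and 0 HF eWAT libraries, so this value is likewise not independent of how it was chosen.

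Lower in HFLF were miR-7688-5p by -1.26 ± 0.33 (log2, edgeR adjusted p = 0.01), miR-1306-3p by -1.05 (0.00355), miR-5099 by -0.84 (0.00614), miR-1306-5p by -0.74 (0.01) and miR-3968 by -0.70 (0.00704). Those 5 kept their calls under every alternative run. miR-5107-5p fell by 1.7 (edgeR adjusted p = 0.0174) but was at 0.0679 without HF 3. miR-1249-3p fell by 0.62 (0.0356) and was not called without HF 3 (0.0863) or HFLF 5 (0.0674). miR-1964-3p fell by 0.68 (0.0324) and was not called without HF 1, HF 3, HF 4, HFLF 1 or HFLF 5 (0.0524 to 0.0863). miR-5126, lower by 0.96 (0.0417), and miR-5132-5p, lower by 1.00 (0.0411), lost their calls in 10 and 13 of 19 alternatives. Single libraries ended the miR-5126 call in HF 1, HF 3, HF 4, HF 5, HFLF 1, HFLF 4, HFLF 5 and HFLF 6 (0.0537 to 0.0979), and the miR-5132-5p call in HF 2, HF 3, HF 4 and HFLF 2 to HFLF 6 (0.0514 to 0.0997). miR-1983 did not pass, at -0.45, and its HFLF median of 50.63 CPM stood nearer the HF than the LF median.

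Between HFLF and LF eWAT edgeR called 0 late-numbered names, and 0% of all 571 miRNAs. At an unadjusted p under 0.05 there were 8 late-numbered names, and DESeq2 called 1, miR-1983. Ranges did not overlap for 1 late-numbered name, miR-1843b-3p, and for 1.05% of all miRNAs. For miR-1983 the log2 change was 1.75 (edgeR adjusted p = 0.185). It was 0.0439 without LF 5 and 0.0383 without HFLF 4. The next smallest were miR-5132-5p at -1.08 (0.215) and miR-1231-3p at 1.16 (0.333).

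Liver gave few calls. Of 65 late-numbered names tested in HF against LF 1 passed, and it was higher in HF, against 5.69% of 422 miRNAs called (2.61% higher and 3.08% lower), and 55 names were too low to test. It was miR-3065-5p (chr11:120014780-120014801, plus strand), which lies opposite the miR-338 hairpin and antisense to an intron of Aatk. It stood at 0, 0.9726 and 2.159 CPM in HFLF, 1.168, 2.575 and 6.086 in HF and 0, 0.0331 and 1.116 in LF. HF and LF did not overlap, which held for no other late-numbered name and for 3.08% of all miRNAs in this comparison. There were 195 counts over the HF libraries and 11 over the LF libraries, 9 of them in 1 library. The log2 change was 3.90 ± 0.84 (edgeR adjusted p = 0.00651) and passed in all 18 alternatives run. Its size depended on LF 3, without which it was 5.91. The arms of miR-338 from the other strand were at -0.19 (5p, edgeR adjusted p = 0.467) and -0.12 (3p, 0.915) in liver. Leaving out LF 3 or LF 6 gave 2 calls, HF 6 gave 3 and HF 5 gave 4. Near the threshold stood miR-1839-5p, at 0.27 (edgeR adjusted p = 0.0596).

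For HFLF against HF liver edgeR called 0 late-numbered names (0% of 422 miRNAs), with 9 at an unadjusted p under 0.05, 2 by DESeq2 and 1 without HF 6. No late-numbered name had ranges without overlap, against 1.18% of all miRNAs. The smallest p-values belonged to miR-5099 at 0.58 (edgeR adjusted p = 0.109), miR-1981-5p at -0.52 (0.109) and miR-6972-3p at -1.06 (0.243). For HFLF against LF liver it also called 0 (0% of 422), with 3 at an unadjusted p under 0.05 and 1 by DESeq2, and ranges overlapped for all of them, against 0.237% of all miRNAs without overlap. There miR-5126 stood at 0.86 (0.214), miR-3065-5p at 2.24 (0.282) and miR-3964 at 1.29 (0.315).

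Whether the diets moved a name differently in the tissues was tested in 1 fit of all 36 libraries. For HF against LF, eWAT minus liver, 15 of 114 late-numbered names passed (5 higher and 10 lower), against 26.7% of 595 miRNAs (11.8% higher and 15% lower). The 15 include miR-1231-3p and miR-5615-5p, whose eWAT values are not independent of how they were chosen. The abundant ones were miR-1843a-5p at -1.0 (log2, edgeR adjusted p = 0.00185), miR-1843b-5p at -0.90 (0.0119), miR-1839-5p at -0.47 (0.00384), miR-5099 at 0.77 (0.0239), miR-1964-3p at 0.99 (0.0242) and miR-3968 at 0.67 (0.0435). For HFLF against HF 4 passed (2 higher and 2 lower), against 9.58% of miRNAs (6.22% higher and 3.36% lower), among them miR-5099 at -1.37 (0.00261). miR-5099 in liver had medians of 83.66 CPM in HFLF, 56.27 in HF and 66.42 in LF, and in eWAT 61.3, 115.4 and 73.51. The calls of miR-3065-5p, miR-1843a-5p and miR-1843b-5p for HF against LF, and of miR-5099 for HFLF against HF, held under all 30 alternatives. Without liver HF 3, without eWAT HF 3, or without eWAT LF 4, LF 5 and HFLF 4, the 15 calls became 9, and without liver HF 2 the 4 calls became 2. Singly left-out libraries that ended these calls were eWAT HF 3 for miR-1964-3p (adjusted p 0.0508) and liver LF 3 for miR-5099 in HF against LF (0.0513). The miR-3968 call was lost in 16 of 30 alternatives, 14 of them single libraries of either tissue (0.0518 to 0.0822), and that of miR-1839-5p with total-count scaling (0.0949). This fit took liver and eWAT libraries as unpaired, and the labels do not say whether same-numbered ones share a mouse. With these as 1 block fewer names passed in both comparisons. The calls of miR-1964-3p and miR-5099 for HF against LF then ended (values at the end).

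The share of a hairpin's counts on its 5p arm was compared between tissues; this ratio does not depend on library size. Of 67 hairpins with both arms listed 16 reached a mean of 20 counts over both arms in each tissue, and 3 differed in a 2-sided permutation test over 18 against 18 libraries (100000 resamples, adjusted p = 0.000107 each, from the smallest p the resamples can give, 2e-05). For miR-1843a the 5p arm took 73.42 ± 6.34% in eWAT and 59.59 ± 3.73% in liver, a difference of 13.83 points. Within eWAT that share was 74.84 ± 3.99% in HFLF, 68.21 ± 7.17% in HF and 77.21 ± 4.16% in LF, while liver held 60.09%, 60.52% and 58.16%. For miR-1981 it was 77.26 ± 2.61% in eWAT and 65.81 ± 4.98% in liver, and for miR-1943 95.88 ± 3.29% and 99.89 ± 0.47%. Over all diets the ranges overlapped between tissues for all 3. Within LF, miR-1981 held 76.28 ± 2.55% in eWAT and 67.02 ± 6.73% in liver. In LF libraries alone 2 of the 16 hairpins passed, with the 5p share higher in eWAT for 1 and lower for 1. The near-copy miR-1843b gave 76.02% in eWAT and 74.15% in liver (permutation p = 0.32), and miR-1839 gave 99.34% and 99.44%. As the split of 5p reads between miR-1843a and miR-1843b is uncertain, so are the 5p shares of both and the contrast between them. The other 11 hairpins, with differences of -4.17 to 4.92 points, did not pass (permutation adjusted p 0.137 or more).

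**Figure D4:**
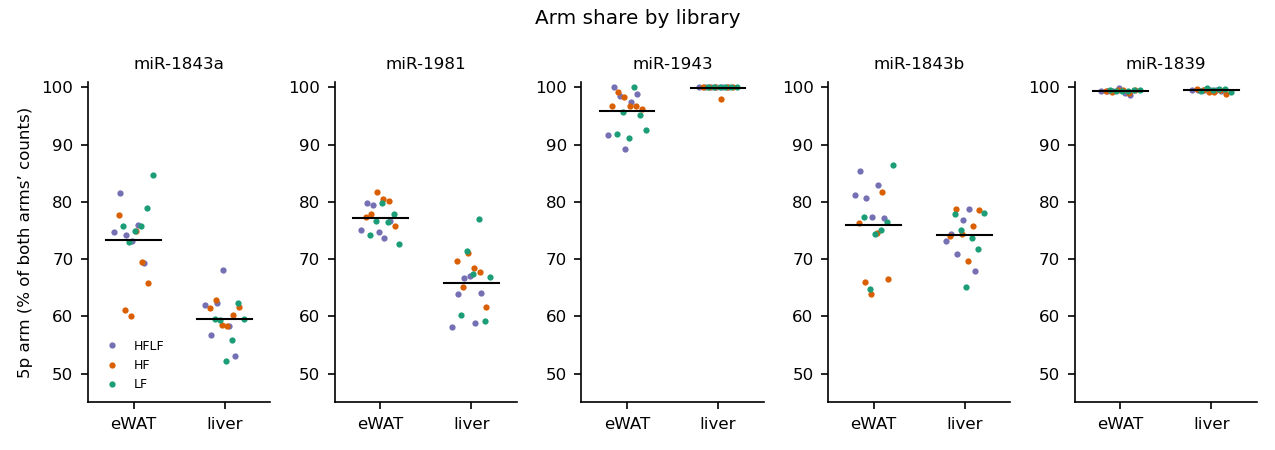
Percentage of a hairpin's counts on the 5p arm in each library, eWAT beside liver, of the 3 that differed and of miR-1843b and miR-1839. Points are libraries coloured by diet, bars are means of 18, and the axis starts at 45%. The 5p share of miR-1843a and miR-1981 lies higher in most eWAT than in most liver libraries, while that of miR-1843b and miR-1839 lies at similar levels in both. The split of 5p reads between miR-1843a and miR-1843b is uncertain.

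In sperm the deposited table holds 79 names, chosen by the authors by a rule not given in the sources used here. Of the 79, 28 are numbered 1200 or above and 12 belong to the 120. The scale of the values is not stated and was read as log2, so differences below are log2 changes only under that reading. The table's lowest value is 1.72, and 7 of the 12 lay above it in all 18 libraries: miR-5099, miR-3535, miR-6240, miR-3470b, miR-3473e, miR-2137 and miR-5121. By mean level they ranked 12, 16, 18, 20, 24, 29 and 35 of the 79. Of the 7, miR-3535 and miR-5121 are snoRNA matches, and miR-3470b matches many genes. miR-3535, with the box-like letters shown above, averaged 12.64 CPM in eWAT and had a median of 10.41 in liver. miR-5121 averaged 0.708 CPM in eWAT and had a median of 0.1939 in liver, so it was in all 18 sperm libraries above the lowest value while close to the floor of 3 counts in the other tissues. miR-6240, 26 bases long and without a listed partner arm, held 25.96 ± 12.61 CPM in eWAT and 34.19 ± 10.27 in liver, and miR-2137 24.31 ± 13.24 and 8.196 ± 3.629. Levels on the sperm scale cannot be set against CPM.

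Diet differences in sperm did not pass. In limma's test over the 79 names, HF against LF called 0% of names and 0 of the 12, with 4 of the 12 at an unadjusted p under 0.05, 2 called without HF 1 and 1 without LF 1. miR-5099 stood at 8.48, 9.35 and 9.76 in HFLF, 9.57, 10.19 and 10.37 in HF and 7.92, 9.16 and 10.03 in LF (values as deposited), a difference of 1.01 ± 0.30 between HF and LF (limma adjusted p = 0.0932). miR-3535 stood at 7.82, 8.59 and 9.12 in HFLF, 8.4, 9.32 and 10.75 in HF and 6.95, 8.6 and 8.91 in LF, a difference of 1.07 ± 0.37 (0.0932). For both the HF and LF ranges overlapped. miR-3470b differed by 0.58 ± 0.22 (limma adjusted p = 0.0932). HFLF against HF called 1.27% of names and 0 of the 12 (5 at an unadjusted p under 0.05, and 1 called without HF 1), with adjusted p = 0.0905 in limma for miR-3470b (-0.70), miR-5099 (-0.83) and miR-3535 (-0.97). HFLF against LF called 0% and 0 of the 12 (2 at an unadjusted p under 0.05), and miR-5121 had the smallest p at 1.40 ± 0.46 (limma adjusted p = 0.315). The HF and LF levels of miR-5121 were 5.79 and 5.06 on average, and the HFLF level 6.47.

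**Figure D5:**
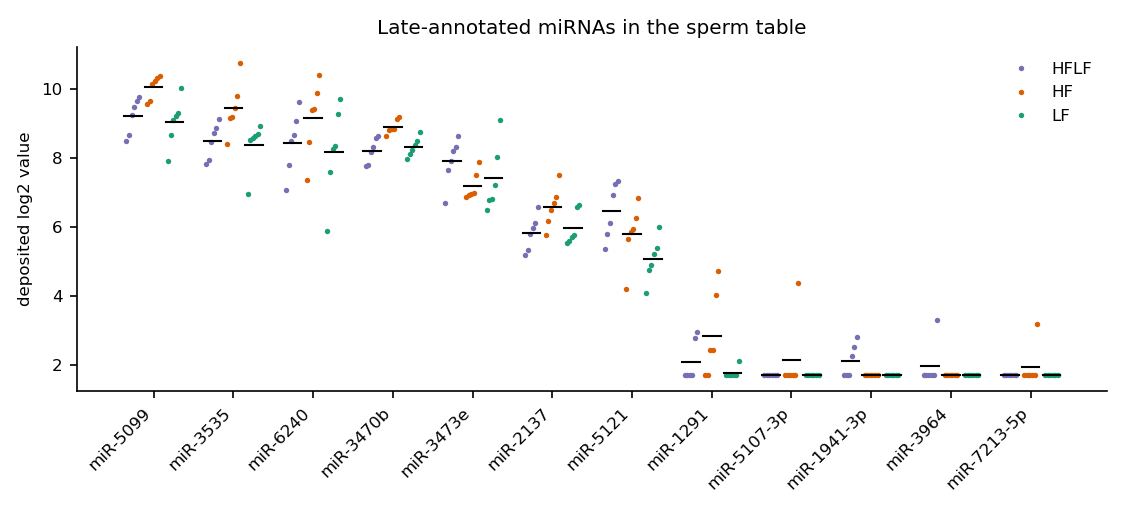
Deposited values, read as log2, of the late-numbered miRNAs in the sperm table, for HFLF, HF and LF, each point a library and each bar the mean of 6. miR-5099, miR-3535 and miR-3470b have higher means in HF than in the other diets with overlapping ranges, and the names at the lowest value of 1.72 show no level that can be compared.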

How the data were processed

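Per the labels' protocols, libraries came from total RNA by way of a NEXTFLEX small RNA kit and were read on an Illumina NovaSeq. Cutadapt, Bowtie and the build GRCm38.p6 are named in the submitters' processing notes, without versions. The counting program, the miRNA reference and its treatment of reads that match several names are not given in the sources used here. For liver and for eWAT the authors deposited raw counts, given as whole numbers per mature name. Those of miR-3084-5p, miR-3084-3p, miR-5123 and miR-5615-5p were even in all 36 libraries. A read may have been counted more than once for these names, which was not tested. Their counts, their place under the count rule and their p-values may then rest on fewer reads than the numbers show. The eWAT table repeats the 18 liver columns, which were identical and used once. The deposited sperm table holds values for 79 names that were read as log2, as neither scale nor transformation is given in the sources used here, and its 18 columns that match no sample here were not used. A cluster number (other: no measurement) in that table was not used. In the tables, C or CD in a column name was taken to mean LF, H or HF to mean HF, and R or RE to mean HFLF. C and R are nowhere defined in the labels.

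The members and lists were chosen with earlier results of these data known. The names described in the text are the 5 most abundant per tissue, up to 10 higher and 10 lower calls per comparison or the 3 of smallest p, all names that match another RNA, are in the sperm table, have both arms among the members, or lie next to the count threshold. Counts were tested on all names that passed filterByExpr, with TMM scaling and edgeR's quasi-likelihood test (edgeR 4.0.16, R 4.3.3), 3 diets in 1 fit per tissue, and 1 joint fit of 36 libraries for the tissue by diet difference, with Benjamini-Hochberg adjustment and 0.05 as threshold. Sperm values were tested with limma 3.58.1. DESeq2 1.42.0 served as an alternative. Arm shares were compared by permutation (scipy 1.17.1, 100000 resamples). Hairpins were folded with RNAfold 2.7.2, and mature sequences were matched exactly to 141767 GENCODE M21 transcripts. Sequences and coordinates came from RefSeq, GRCm38.p6. Splice-site distances allowed 2 bases. The fits were tested on simulated data. Other settings, and each library left out in turn, are given at the end.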

Additional observations from a re-analysis of the deposited data

Results flagged for a closer look

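Within 138 groups of 6 libraries, 11 had a library far from its group, and chance alone gives about 1 in 20 groups. In eWAT, miR-1231-3p stood at 1.074 CPM in LF 5, with the other LF libraries at 0.2678 to 0.3522. miR-1249-3p stood at 154.1 CPM in HF 3 (others 73.43 to 90.47) and at 42.24 in HFLF 5 (others 58.87 to 69.17). In liver, miR-1948-3p stood at 114.8 CPM in HF 1 (others 189.6 to 233.6), miR-1948-5p at 79.84 in LF 5 (others 105.9 to 121.7) and miR-3065-5p at 1.116 in LF 3 (others 0 to 0.1374). In sperm, on the deposited scale read as log2, miR-3535 stood at 6.952 in LF 3 (others 8.529 to 8.912). A further 4 sperm values were the only ones of their group above the lowest value of 1.72: miR-1291 at 2.115 in LF 3, miR-5107-3p at 4.383 in HF 4, miR-7213-5p at 3.192 in HF 5 and miR-3964 at 3.32 in HFLF 6.

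The effect of HF against LF differed between eWAT and liver for 15 names in the joint edgeR fit, which took the libraries as unpaired. Among them, the eWAT values of miR-1231-3p and miR-5615-5p are not independent of how they were chosen. Values are the eWAT minus the liver log2 change, with the adjusted p. Abundant in both tissues were miR-1843a-5p at -1.0 (0.00185), miR-1839-5p at -0.47 (0.00384), miR-1843b-5p at -0.9 (0.0119), miR-5099 at 0.77 (0.0239), miR-1964-3p at 0.99 (0.0242) and miR-3968 at 0.67 (0.0435). At lower counts the same edgeR test gave miR-3065-5p at -3.31 (adjusted p = 0.00838), miR-5615-5p at -3.98 (0.0299), miR-3962 at -1.45 (0.035) and miR-7240-5p at -1.91 (0.0411). Without liver LF 3 the miR-3065-5p value was -5.44, and it passed in all 30 alternatives. Of 30 alternatives, 7 ended the call of miR-5615-5p (adjusted p 0.0511 to 0.111), among them leaving out liver HF 3, liver HF 6, eWAT LF 5, eWAT HF 2 or eWAT HF 3. The miR-3962 call ended in 15 (0.0503 to 0.0978), among them without liver LF 2, LF 3, LF 4, HF 2 or HF 3 or eWAT LF 1, LF 4, LF 6, HF 2, HF 3 or HF 4. The miR-7240-5p call ended in 20 (0.0557 to 0.169), among them without liver LF 1, LF 5, LF 6, HF 2, HF 3, HF 5 or HF 6 or eWAT LF 2 to LF 5, HF 1 to HF 4 or HF 6.

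The other 5 values rest on counts near 0 in 1 tissue, depend on the prior count and are no bound: miR-1231-3p at 6.6 (edgeR adjusted p = 0.00259), miR-1941-3p at -4.49 (0.0274), miR-3076-5p at -5.9 (0.0294), miR-6392-5p at 4.12 (0.032) and miR-3105-3p at -2.57 (0.0482). Over 6 liver libraries each, counts summed to 0 in HF and 13 in LF for miR-1231-3p, 7 and 0 for miR-1941-3p, 16 and 0 for miR-3076-5p, and 0 and 7 for miR-6392-5p. In eWAT miR-3105-3p had 4 in HF and 29 in LF. Without liver HF 3 alone, miR-3076-5p stood at -2.45 (edgeR adjusted p = 0.385) and miR-1941-3p at -2.24 (0.352), and without liver LF 4 alone miR-6392-5p stood at 2.62 (0.178). The miR-3105-3p call ended in 24 of 30 alternatives (0.0512 to 0.412), among them without any 1 liver library of HF or LF, and without eWAT LF 3, LF 4, LF 5 or any 1 eWAT HF library but HF 4.

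For HFLF against HF the effect differed between the tissues for miR-5099 at -1.37 (edgeR adjusted p = 0.00261), miR-1839-5p at 0.46 (0.0149), miR-1843a-5p at 0.8 (0.0219) and miR-1949 at -3.15 (0.0305). miR-1949 held 57 counts over the HFLF and 9 over the HF liver libraries. Its call ended in 8 of 30 alternatives (0.0531 to 0.0921), among them without liver HF 2, liver HFLF 3, eWAT HF 4, eWAT HFLF 1, eWAT HFLF 3 or eWAT HFLF 5. That of miR-1843a-5p ended in 4 (0.0503 to 0.088), among them without liver HF 2 (0.0509) or eWAT HF 3 (0.0526), and that of miR-1839-5p with total counts (0.185) and without a low-count filter (0.143).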

How the results depend on the processing

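Over 70 results of named members and 1497 alternatives, the direction and the side of the threshold held in 1295, a call was lost in 187 and gained in 15, and no direction reversed. Calls counted over all late-numbered names moved as follows, and the cause was not tested. Without a low-count filter 8 were called in eWAT HFLF against HF (14 as reported), 6 and 1 for the tissue difference of HF against LF and of HFLF against HF (15 and 4), and 1 each in liver HFLF against HF and HFLF against LF (0 each). DESeq2 called 1 in eWAT HFLF against LF (0), 8 for the tissue difference of HFLF against HF (4), and in liver 2 in HF against LF (1), 2 in HFLF against HF (0) and 1 in HFLF against LF (0). In liver HF against LF, RLE factors gave 2, total counts 5 and a fit of these diets alone 2. Without LF 4, LF 5 and HFLF 4, 1 was called in eWAT HFLF against LF and 9 for the tissue difference of HF against LF. A fit of the compared diets alone called 1 in sperm HF against LF (0).

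Leaving out each library in turn gave 18 to 23 calls in eWAT HF against LF, 6 to 16 in HFLF against HF and 0 to 1 in HFLF against LF. It gave 1 to 4 in liver HF against LF, 0 to 1 in HFLF against HF and 0 to 0 in HFLF against LF. The tissue difference ranged over 9 to 16 (HF against LF) and 2 to 6 (HFLF against HF). Sperm gave 0 to 2, 0 to 1 and 0 to 0 in the same order of comparisons. The labels do not say whether same-numbered liver and eWAT libraries share a mouse. Correlations of same-numbered libraries ran from -0.776 to 0.706 in eWAT, -0.199 to 0.266 in liver and -0.067 to 0.131 between the tissues. At most 2 of 6 pairs correlated best with their own number. Correlations across diets do not bear on a shared mouse, and low ones between tissues cannot exclude it. With the number as a replicate block 18 were called in eWAT HF against LF, 13 in HFLF against HF and 0 in HFLF against LF, 1, 0 and 0 in liver and 0 in each sperm comparison. With same-numbered liver and eWAT libraries as 1 block the tissue difference called 5 and 2, without miR-1964-3p (adjusted p 0.0797) and miR-5099 (0.0631) in HF against LF. Of 16 hairpins, 3 differed in arm share within such pairs, and 2 in LF libraries alone or at 50 counts. Depth limits the names under 2 CPM, where 3 counts are a sizeable part of the level.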
